A study of Mus musculus with 6 samples.

Results

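The 40 genes described here encode proteins that build ribosomes in the nucleolus. They were taken by symbol from a table of 55421 mouse genes, all 40 were found in it, and all 40 passed the filter on low counts. They were compared in leukemia cells with and without Ddit4, a stress-induced gene whose product restrains mTORC1, the kinase complex that couples nutrients to cell growth. The leukemia was driven by AE9a, a shortened AML1-ETO fusion protein, which a retrovirus with a GFP marker had brought into c-Kit+ bone marrow progenitors of young adult C57BL/6 mice. Donors were wild type (AE9a-Ddit4+/+, 3 libraries) or were germline knockouts of Ddit4 (AE9a-Ddit4-/-, 3 libraries), and all 6 libraries carried AE9a. GFP+ cells had been grown in irradiated recipients, which keep host blood and stromal cells, and the labels also name a culture medium in which cells were kept. The cells of each group came from the bone marrow of several transplanted mice. Whether these mice had received different primary leukemias is not stated. In the paper's primary transplants, fewer recipients of AE9a-Ddit4-/- cells developed leukemia than the 3 libraries of that group. If the 3 libraries came from those transplants, some of them share a primary leukemia. The p values therefore measure the spread between these libraries, which need not be a spread between independent leukemias.

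Ribosome synthesis starts when RNA polymerase I copies the ribosomal DNA into a long precursor RNA. Small nucleolar ribonucleoproteins (snoRNPs) of the box C/D class methylate this precursor and those of the box H/ACA class convert uridine to pseudouridine in it, while the small subunit processome and a separate set of assembly factors cut and fold it into the small and the large subunit. Fast-growing cells, leukemia cells among them, make many ribosomes, and both mTORC1 and the transcription factor Myc are known to drive the process. The question put to the data was whether loss of Ddit4 changed the RNA level of these factors.

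Libraries held 62141558 to 72717681 counts. Ddit4 itself stood at 228, 161 and 342 counts scaled to a library total of 1e+06 (CPM) in AE9a-Ddit4+/+ libraries 1, 2 and 3 and at 84.9, 77.7 and 85.9 CPM across the AE9a-Ddit4-/- libraries, with an edgeR log2 fold change of -1.56 (SE 0.28, adjusted p = 0.00635). The table counts whole genes, and which part of Ddit4 the knockout allele lacks is not given. At the protein level, the paper reports from western blots that DDIT4 was wholly absent in AE9a-Ddit4-/- leukemia cells. Mitochondrial genes took 5.03% to 7.91% of counts in AE9a-Ddit4+/+ and 11.3% to 16.5% in AE9a-Ddit4-/- libraries. Xist, an RNA of female cells, was at 566 to 1032 CPM across AE9a-Ddit4+/+ and 20.3 to 129 CPM across AE9a-Ddit4-/- libraries, and the Y-linked Ddx3y had at most 5 counts in the former and 88.2 to 125 CPM in the latter. The AE9a-Ddit4-/- libraries thus held both RNAs. The paper gives female recipients for several of its transplants, and a share of host cells in these values was not tested. Sex and genotype cannot be told apart here.

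Few of the 40 genes passed the test, and all that did were lower in AE9a-Ddit4-/- cells. Fold changes are AE9a-Ddit4-/- over AE9a-Ddit4+/+, and a gene was called when its adjusted p from edgeR's quasi-likelihood test over all 18375 genes tested was below 0.05. Called lower were 5 of the 40, Rrp12, Rrp9, Noc3l, Fbl and Utp20. This is 12.5%, close to the 10.7% of all genes tested that were called lower. Among the 8218 genes whose average log2 CPM exceeded 4, as it did for these 40, 17% were called lower. None of the 40 was called higher, against 19.4% of all genes and 15.1% of the 8218. For this count of 0 by edgeR, the number at an unadjusted p below 0.05 was 0 too. DESeq2 called 6 of the 40 lower (15% of all genes) and 0 higher (23.7% of all genes). At an unadjusted p below 0.05, 15 of the 40 were lower, against 17.4% of all genes lower and 25% higher. Of the 8218 genes of higher level, 2173 were lower and 1613 higher at that p.

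The direction of the fitted changes was more uniform than the calls. The log2 fold change was below 0 in 37 of the 40 genes (92.5%), and Rrn3, Bop1 and Wdr12 were the exceptions. This share was 48.6% for all genes tested and 58.7% for the 8218 of higher level. For the other pathway lists below it was 84.5% (other ribosome biogenesis) to 96.2% (cytosolic ribosomal proteins), apart from the Myc network (20%). The median log2 fold change of the 40 genes was -0.64, beside 0.04 for all genes and -0.17 for the 8218 of higher level. The 3 AE9a-Ddit4-/- libraries lay below the 3 AE9a-Ddit4+/+ libraries, with no overlap, in 15 genes. This is 37.5%, against 22.2% of all genes tested and 30.8% of those above the level named. The AE9a-Ddit4-/- libraries all lay above the others in 0 genes, against 27.9% of all genes and 1750 of the 8218. In the other 25 genes the groups overlapped. Changes were measured coarsely. The 95% interval of the log2 fold change lay wholly between -1 and 1 in 4 genes (Rrn3, Nop14, Nob1 and Rrp1b), and in 34 genes its lower end reached -1 or beyond, so that for most genes the interval included a 2-fold decrease whether or not they were called. In bulk RNA, fewer cells that make a transcript and less of it per cell cannot be told apart.

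**Figure D1:**
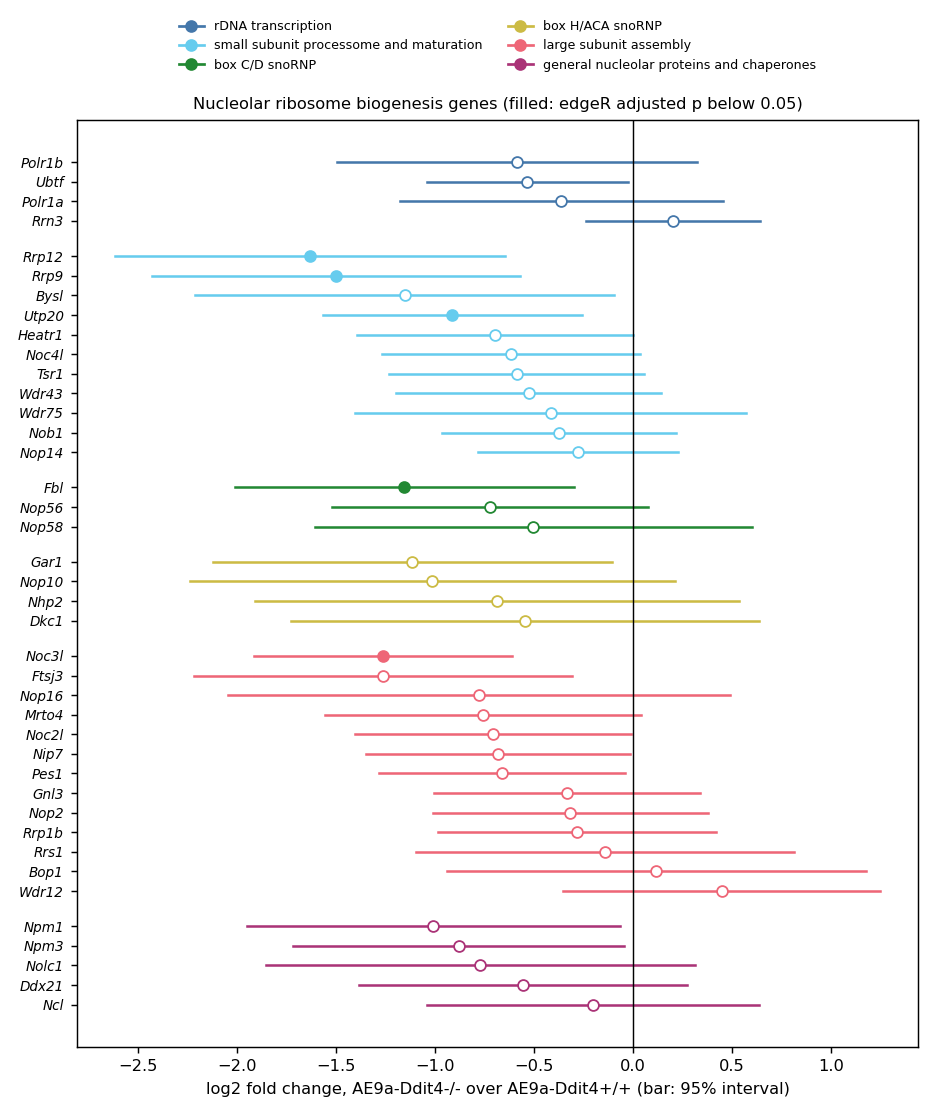
Log2 fold change of each of the 40 nucleolar ribosome biogenesis genes, AE9a-Ddit4-/- over AE9a-Ddit4+/+, with its 95% interval (horizontal axis, log2 units), grouped and coloured by role. The intervals of most genes reach across 0, 37 of 40 estimates lie below it, and filled points mark the 5 genes past the threshold.

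Single libraries set much of this picture. In CPM summed over the 40 genes, the AE9a-Ddit4+/+ libraries stood at 6942, 4049 and 6557 and the AE9a-Ddit4-/- libraries at 2271, 4935 and 4456. Library 1 of AE9a-Ddit4-/- was therefore lowest, and the other AE9a-Ddit4-/- libraries both lay above library 2 of AE9a-Ddit4+/+. Group means of this sum were 5849 ± 1571 and 3887 ± 1420 (SD, n = 3 each), so that the AE9a-Ddit4-/- mean was 66.5% of the other with overlapping groups. AE9a-Ddit4-/- library 1 was the lowest of its group in 40 of 40 genes and the lowest of all 6 libraries in 39. AE9a-Ddit4+/+ library 2 was the lowest of its group in 37, all but Polr1b, Nob1 and Gnl3. Set against the range of the AE9a-Ddit4+/+ libraries, AE9a-Ddit4-/- library 1 lay below it in 39 genes, library 2 in 16 and library 3 in 19.

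Leaving out these libraries changed the count of calls. Without AE9a-Ddit4-/- library 1, 1 of the 40 genes (Noc3l) was called lower, with 6.05% of all genes tested, and the median log2 fold change moved from -0.64 to -0.40. Without AE9a-Ddit4+/+ library 2, 9 were called lower (10.7% of all genes) and the median was -0.81. A single gene was called when AE9a-Ddit4+/+ library 1 was omitted (5.99% of all genes) and likewise for AE9a-Ddit4-/- library 3 (7.29%), and 2 genes were when AE9a-Ddit4-/- library 2 was (7.06%). With AE9a-Ddit4+/+ library 3 omitted the number was 0 by edgeR (5.61% of all genes), beside 5 genes that were lower with an unadjusted p below 0.05. Fbl, Utp20 and Rrp9 lost their call in each omission but that of AE9a-Ddit4+/+ library 2. Rrp12 also kept it when AE9a-Ddit4-/- library 2 was omitted, and Noc3l lost it in the omission of AE9a-Ddit4+/+ library 3 alone. With the mitochondrial genes left out of the counts, 3 of the 40 were called lower (10.1% of all genes), the median was -0.62 and 37 estimates were still below 0. The coefficient of variation between libraries of a group had a median over the 40 genes of 28.0% in AE9a-Ddit4+/+ and 38.0% in AE9a-Ddit4-/-.

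**Figure D2:**
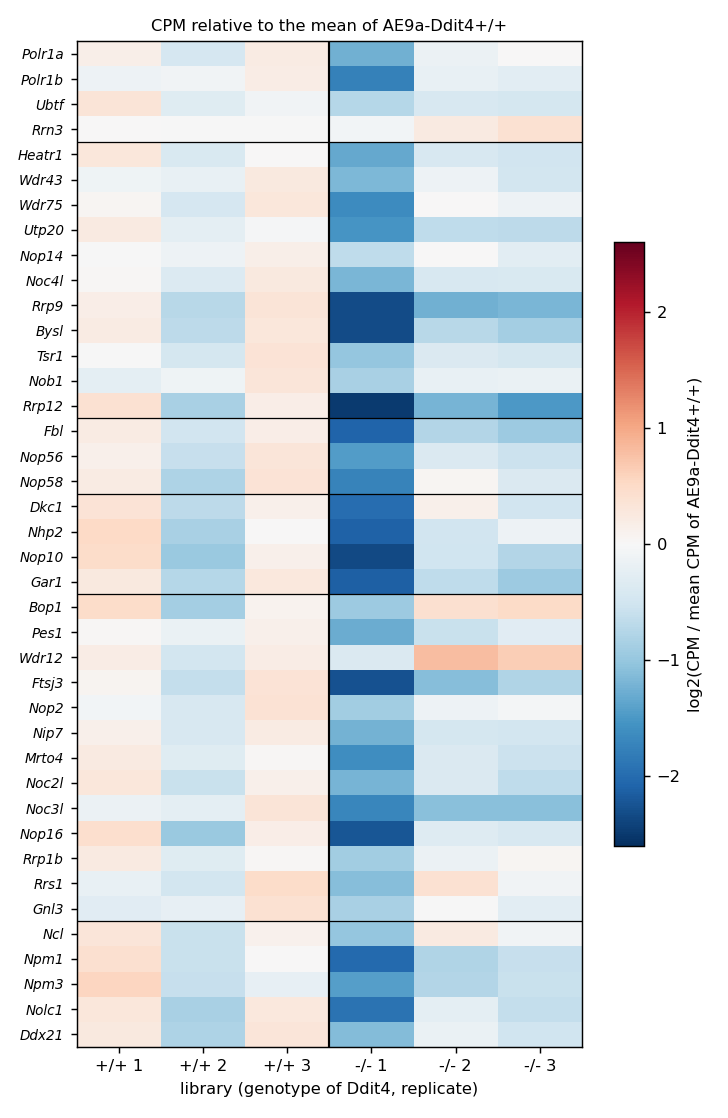
Level of each of the 40 genes in each of the 6 libraries, as log2 of its CPM over the mean CPM of the 3 AE9a-Ddit4+/+ libraries (colour scale, log2 units), with lines between the roles. AE9a-Ddit4-/- library 1 is lowest in its group in all 40 genes, and AE9a-Ddit4+/+ library 2 is the lowest of its group in 37.

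Of the factors of the small subunit processome and of small subunit maturation, 3 of 11 were called lower, and the median log2 fold change of the 11 was -0.62. Of all genes tested 10.7% were called lower. Of the 8218 genes of higher level, whose median was -0.17, 17% were. These shares apply to each role below, and with 3 to 13 genes in a role its count says little. Rrp12, a factor in the export and maturation of pre-ribosomal subunits, lies on chromosome 19 at 41862851 to 41896173 (minus strand, GRCm38). Its level was 128, 54.3 and 108 CPM across the AE9a-Ddit4+/+ libraries and 17.2, 42.2 and 34.3 CPM across the AE9a-Ddit4-/- libraries, with every library of the second group below every library of the first. Its log2 fold change of -1.63 (edgeR, SE 0.42, adjusted p = 0.0244), a level 3.10-fold lower, was the largest decrease among the 40.

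Rrp9, which binds the U3 snoRNA that guides early cuts in the precursor, stood at 53.0, 28.3 and 59.3 CPM across AE9a-Ddit4+/+ and at 9.35, 19.7 and 20.6 CPM across AE9a-Ddit4-/- libraries. The groups did not overlap, and the log2 fold change was -1.50 (edgeR, SE 0.40, adjusted p = 0.0265). Its gene is on chromosome 9 at 106475963 to 106485424 and shares 20 exon bases with Parp3 on the opposite strand. Utp20, a large scaffold protein of the processome on chromosome 10 (88746607 to 88826804, minus strand), went from 89.3, 63.3 and 74.1 CPM to 26.1, 47.5 and 46.9 CPM without overlap. The log2 fold change of Utp20 was -0.91 (edgeR, SE 0.28, adjusted p = 0.0439), and its call held in 4 of 15 alternatives, with edgeR adjusted p values of 0.0517 to 0.0535 with DESeq2 size factors, without mitochondrial genes and under either other filter on low counts.

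The other 8 factors of the small subunit had log2 fold changes from -1.15 to -0.28 and none passed the test. They were Bysl (-1.15, edgeR adjusted p = 0.0937), Heatr1 (-0.70), Noc4l (-0.62), Tsr1 (-0.59), Wdr43 (-0.53), Wdr75 (-0.42), Nob1 (-0.37) and Nop14 (-0.28). Nob1, the nuclease that makes the last cut of the small subunit RNA, had the highest level of the 11 per kilobase of transcript. It stood at 65.8, 73.3 and 97.4 CPM across AE9a-Ddit4+/+ and 44.1, 69.0 and 69.6 CPM across AE9a-Ddit4-/- libraries, which overlapped. Bysl shares 361 exon bases with Ccnd3 and Tsr1 shares 1240 with Srr, both on the opposite strand, and it is not stated whether the counting kept strands apart.

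Among the 3 proteins of box C/D snoRNPs, Fbl was called lower, as were 10.7% of all genes tested. Fbl encodes fibrillarin, the enzyme that methylates ribosomal RNA, and lies on chromosome 7 at 28169710 to 28179269 (plus strand). Its level was 281, 172 and 271 CPM across AE9a-Ddit4+/+ and 56.8, 142 and 126 CPM across AE9a-Ddit4-/- libraries, again without overlap, and the log2 fold change was -1.16 (edgeR, SE 0.37, adjusted p = 0.0491). Its partners in the same particle, Nop56 (-0.72, adjusted p = 0.151) and Nop58 (-0.50, adjusted p = 0.459), did not pass edgeR's test, and for both the groups overlapped. The call of Fbl was close to the threshold and held in 4 of 15 alternatives. It was lost with DESeq2 size factors (adjusted p = 0.0562), without mitochondrial genes (0.0581), with no low-count filter (0.0545) and with at least 10 counts in every library (0.0532), all from edgeR.

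Of the 4 proteins of box H/ACA snoRNPs none was called by edgeR or by DESeq2, and 1 was lower at an unadjusted p below 0.05. Their median log2 fold change was -0.85, the lowest of the 6 roles. Gar1 was at -1.12 (edgeR adjusted p = 0.0900), the small core protein Nop10 stood at 71.7, 26.1 and 55.9 CPM across AE9a-Ddit4+/+ and 10.1, 35.9 and 30.0 CPM across AE9a-Ddit4-/- libraries, and Dkc1, the pseudouridine synthase, was at -0.54. Nhp2 had the highest level per kilobase of the 4, with 117, 45.4 and 82.1 CPM across AE9a-Ddit4+/+ and 19.0, 58.1 and 74.9 CPM across AE9a-Ddit4-/- libraries. In Nhp2 and Nop10 alike, AE9a-Ddit4-/- libraries 2 and 3 lay above AE9a-Ddit4+/+ library 2. Dkc1 is X-linked, and the sex of the cells moved with genotype as described above.

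For assembly of the large subunit, 1 of 13 genes was called lower (10.7% of all genes tested) and the median was -0.66. Noc3l, which takes part in early large subunit assembly, lies on chromosome 19 at 38788128 to 38819237 (minus strand). It had 30.4, 28.6 and 43.0 CPM across AE9a-Ddit4+/+ and 10.5, 15.98 and 15.9 CPM across AE9a-Ddit4-/- libraries, so that the highest AE9a-Ddit4-/- library was well below the lowest AE9a-Ddit4+/+ library. Its log2 fold change was -1.26 (edgeR, SE 0.28, adjusted p = 0.0131), and of the 40 genes it was called most often when the processing was varied, in 13 of 15 alternatives.

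Ftsj3, an RNA methyltransferase of the large subunit precursor, was just outside the threshold. It had 199, 123 and 242 CPM across AE9a-Ddit4+/+ and 38.9, 87.4 and 109 CPM across AE9a-Ddit4-/- libraries, without overlap, with a log2 fold change of -1.26 (edgeR, SE 0.41, adjusted p = 0.0525). Noc2l, the partner of Noc3l and the member of this role with the highest level per kilobase, was at 295, 162 and 264 CPM and at 104, 185 and 153 CPM in both groups in turn, which overlapped (edgeR log2 fold change -0.71, adjusted p = 0.114). Noc2l shares 598 exon bases with Samd11 on the opposite strand. Nop16, Mrto4, Nip7, Pes1, Gnl3, Nop2, Rrp1b and Rrs1 lay between -0.78 and -0.14.

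The 3 subunits of the PeBoW complex, which is needed to mature the large subunit RNA, had estimates on both sides of 0. They were singled out after their values were seen and are given as a description. Pes1 was at 191, 165 and 203 CPM across AE9a-Ddit4+/+ and 76.2, 125 and 152 CPM across AE9a-Ddit4-/- libraries, with no overlap (log2 fold change -0.66, 95% interval -1.29 to -0.04, edgeR adjusted p = 0.101). Bop1 was at 103, 40.1 and 78.4 CPM and at 38.4, 98.0 and 104 CPM, with wide overlap (0.12, interval -0.94 to 1.17). Wdr12 was at 68.0, 42.3 and 67.4 CPM and at 45.7, 104 and 92.8 CPM, so that AE9a-Ddit4-/- libraries 2 and 3 exceeded all AE9a-Ddit4+/+ libraries (0.45, interval -0.35 to 1.25). The intervals overlap, and a difference between the 3 subunits was not tested.

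None of the 4 genes of ribosomal DNA transcription was called by edgeR or by DESeq2, with 1 lower at an unadjusted p below 0.05. The median was -0.45. Ubtf, which opens ribosomal DNA for RNA polymerase I and had the highest level per kilobase of the 4, was at 250, 160 and 187 CPM across AE9a-Ddit4+/+ and 119, 149 and 144 CPM across AE9a-Ddit4-/- libraries, without overlap (edgeR log2 fold change -0.53, SE 0.22, adjusted p = 0.102). The polymerase I subunits Polr1a and Polr1b were at -0.36 and -0.59. Rrn3, the initiation factor through which growth signals reach polymerase I, was the steadiest of the 40 genes in AE9a-Ddit4+/+ libraries, with 55.8, 54.9 and 55.3 CPM. In AE9a-Ddit4-/- libraries it had 52.7, 65.4 and 72.8 CPM, with 1 library below and 2 above the other group. Its log2 fold change was 0.20 (95% interval -0.24 to 0.64), an interval that leaves out a change of 2-fold in either direction.

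Among the 5 general nucleolar proteins and chaperones none was called by edgeR or by DESeq2, with 2 lower at an unadjusted p below 0.05, and the median was -0.77. Npm1, the nucleophosmin chaperone, was the most abundant of the 40 per kilobase, at 552 ± 183 in AE9a-Ddit4+/+ and 274 ± 122 in AE9a-Ddit4-/- (CPM per kilobase of transcript, SD, n = 3 each). It had 1200.1, 603 and 903 CPM across AE9a-Ddit4+/+ and 222, 525 and 596 CPM across AE9a-Ddit4-/- libraries. The groups did not overlap, yet the gap between 603 and 596 was narrow, and the log2 fold change of -1.01 (SE 0.40) did not pass edgeR's test (adjusted p = 0.0983). Ncl, which encodes the abundant RNA-binding protein nucleolin, had overlapping groups in the same libraries, with 1272, 677 and 1101 CPM and 505, 1197 and 948 CPM (log2 fold change -0.20, 95% interval -1.04 to 0.64). Npm3 (-0.88), Nolc1 (-0.77) and the helicase Ddx21 (-0.55) lay between them.

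**Figure D3:**
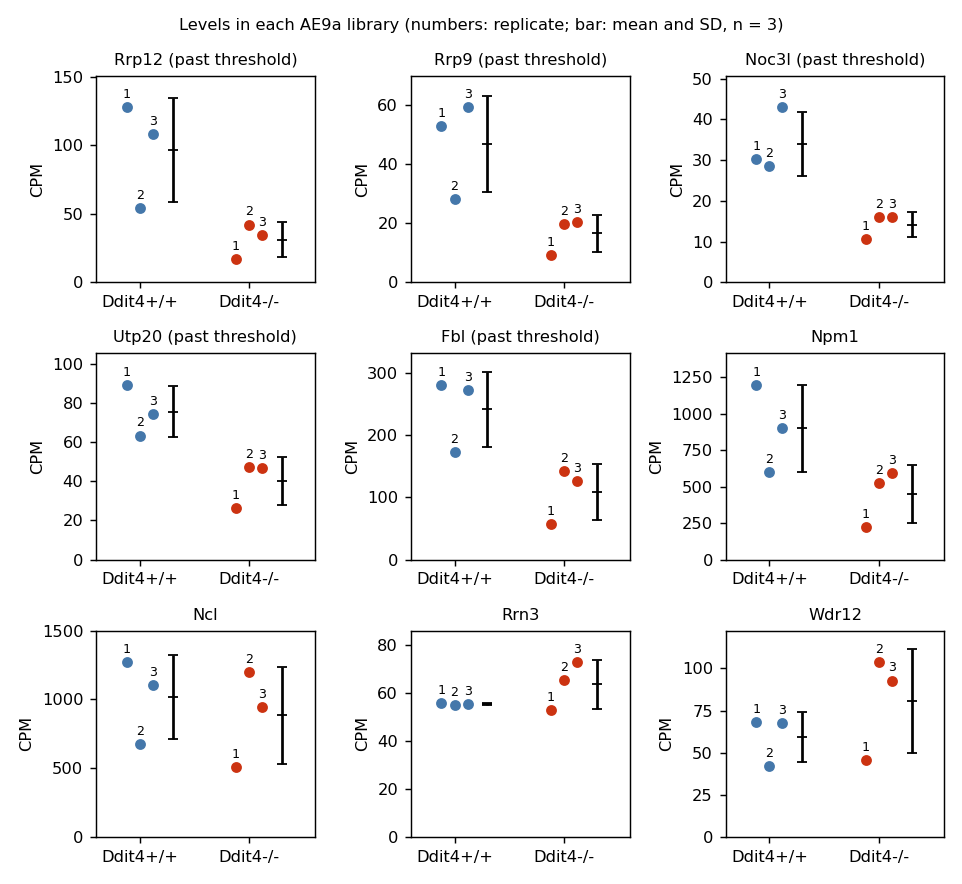
CPM of 9 of the genes in each library (points, numbered by replicate, linear axis from 0), AE9a-Ddit4+/+ beside AE9a-Ddit4-/-, with the mean and SD of each group as a bar (n = 3). The 5 called genes and Npm1 show no overlap between the groups, whereas Ncl, Rrn3 and Wdr12 do.

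Promoters of called genes are shown because these passed the test, and that of Rrn3 because it had the narrowest spread in AE9a-Ddit4+/+ libraries and was not lower. Windows run from 250 bases before to 50 after the gene start (RefSeq, GRCm38.p6), and 35 of the 40 genes had one. Of the called genes these were Utp20 (chr10:88826765-88827064, minus strand), Noc3l (chr19:38819188-38819487, minus strand) and Rrp9 (chr9:106477059-106477358, plus strand), with Rrn3 at chr16:13780449-13780748 (plus strand). The Rrp9 window lies inside the gene coordinates given above, which begin further upstream. Capitals mark the E-box CACGTG, to which Myc and related factors bind, and the ETS-type motif CCGGAAG or its reverse complement CTTCCGG.
Utp20: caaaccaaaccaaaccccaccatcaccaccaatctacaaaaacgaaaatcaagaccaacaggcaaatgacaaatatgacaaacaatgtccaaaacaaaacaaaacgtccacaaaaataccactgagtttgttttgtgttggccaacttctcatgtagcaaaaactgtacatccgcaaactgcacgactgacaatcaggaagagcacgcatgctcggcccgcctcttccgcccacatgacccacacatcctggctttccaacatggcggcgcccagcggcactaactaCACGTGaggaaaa
Noc3l: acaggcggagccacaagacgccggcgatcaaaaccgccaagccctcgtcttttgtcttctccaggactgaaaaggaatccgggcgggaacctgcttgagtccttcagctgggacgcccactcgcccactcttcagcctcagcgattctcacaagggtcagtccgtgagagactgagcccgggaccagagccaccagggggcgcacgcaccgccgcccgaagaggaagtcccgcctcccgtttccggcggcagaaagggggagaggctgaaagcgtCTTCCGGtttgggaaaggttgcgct
Rrp9: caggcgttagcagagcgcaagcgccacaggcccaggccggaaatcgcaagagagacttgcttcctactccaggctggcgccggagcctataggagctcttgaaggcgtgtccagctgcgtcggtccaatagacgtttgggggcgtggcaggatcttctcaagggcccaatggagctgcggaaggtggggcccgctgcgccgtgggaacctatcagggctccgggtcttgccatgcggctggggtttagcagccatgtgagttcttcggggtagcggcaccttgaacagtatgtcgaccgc
Rrn3: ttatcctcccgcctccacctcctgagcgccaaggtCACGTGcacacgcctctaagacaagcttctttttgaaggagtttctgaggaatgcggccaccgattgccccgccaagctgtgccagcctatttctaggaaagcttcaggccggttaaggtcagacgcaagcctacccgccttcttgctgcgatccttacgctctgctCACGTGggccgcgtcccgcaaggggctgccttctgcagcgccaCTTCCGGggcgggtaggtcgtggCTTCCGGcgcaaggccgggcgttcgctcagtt

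Utp20 held 1 E-box, Noc3l 1 ETS-type motif, Rrp9 neither, and Rrn3 2 of each. Motifs were searched on both strands, and no 2 of them overlapped in these windows. A gene was counted when any of its windows held the motif. The E-box was found in 6 of the 35 genes (Nop2, Pes1, Rrn3, Tsr1, Utp20 and Wdr43), which is 17.1%. It was found in 8.09% of all 27025 genes with a window and 11.2% of the 11602 of them that were tested. The ETS-type motif was found in 10 genes (28.6%, against 9.93% and 18.7%), namely Gar1, Heatr1, Nhp2, Nip7, Noc2l, Noc3l, Nolc1, Nop2, Rrn3 and Tsr1. The TATA motif TATAAA was found in Dkc1 and Pes1 (5.71%, against 15.7% and 9.28%). These shares describe letters in a window and were not tested.

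Position on the genome moved with the estimates. All 3 genes with a fold change above 0 lie on chromosomes 1, 15 and 16, on which the median log2 fold change of genes with an average log2 CPM above 4 was 0.23, 0.39 and 0.25. These chromosomes were picked after their medians, the only ones above 0 among the autosomes and X, were seen. The 7 of the 40 genes on these chromosomes (Wdr75, Nop58, Wdr12, Rrs1, Ncl, Bop1 and Rrn3) had a median of -0.14 with 0 called by edgeR or by DESeq2 and 0 at an unadjusted p below 0.05. Of all genes tested, 10.7% were called lower by edgeR and 17.4% were lower at its unadjusted p below 0.05. With 7 genes, a count of 0 says little. The 33 on other chromosomes had a median of -0.70 and a range of -1.63 to -0.28, and all 5 calls were among them. When the median of the gene's own chromosome was subtracted, these medians came to -0.38 and -0.44, and 38 of the 40 genes lay below their chromosome, all but Wdr12 and Nop14. The cause of the chromosome medians was not tested.

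**Figure D4:**
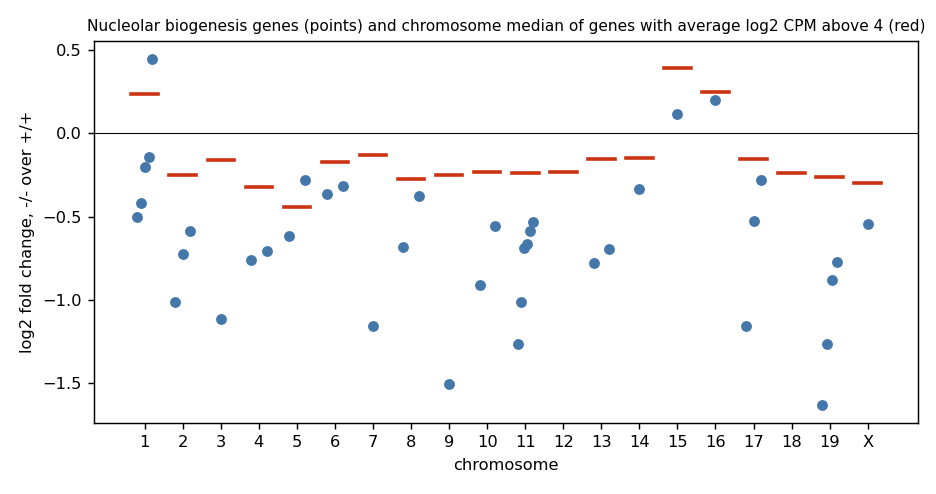
Log2 fold change of the 40 genes (points) by chromosome (horizontal axis, log2 units on the vertical axis), with the median of all genes on that chromosome that had an average log2 CPM above 4 (red line). Chromosomes 1, 15 and 16 have medians of 0.23, 0.39 and 0.25, and the genes above 0 lie on them.

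A wider set of 110 other ribosome biogenesis factors held 24 called lower (21.8%) and 0 called higher by edgeR, with 2 higher at an unadjusted p below 0.05 and 1 higher by DESeq2. Its median log2 fold change was -0.46. Of the 40 further factors of the small subunit 13 were called lower, of the 46 of the large subunit 8, of the 11 of snoRNP assembly 2 and of the 13 of ribosomal DNA transcription 1. That single gene was Polr1d, a subunit shared by RNA polymerases I and III, at 145, 146 and 188 CPM across AE9a-Ddit4+/+ and 43.6, 34.7 and 45.7 CPM across AE9a-Ddit4-/- libraries (edgeR log2 fold change -1.95, SE 0.21, adjusted p = 0.000847). Here AE9a-Ddit4-/- library 1 did not stand apart, unlike in the 40 genes. Znhit3, an assembly factor of box C/D particles, was at -1.23 (edgeR adjusted p = 0.0210). Without AE9a-Ddit4+/+ library 2 this set held 25 calls, and without any other single library it held 4 to 13.

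Some of the ribosomal proteins that these factors assemble were called lower, in a larger share than the 12.5% of the nucleolar genes, a difference that was not tested. Of 79 genes of cytosolic ribosomal proteins, 35 (44.3%) were called lower and 0 higher by edgeR (0 higher at an unadjusted p below 0.05 and 0 by DESeq2), with a median of -0.57. Rplp0 was at 5795, 5045 and 5803 CPM across AE9a-Ddit4+/+ and 2235, 2457 and 2355 CPM across AE9a-Ddit4-/- libraries (edgeR log2 fold change -1.24, adjusted p = 0.00206), and Rpl41 was at -1.15. The median deviation of these genes from the AE9a-Ddit4+/+ mean was -0.58, -0.46 and -0.50 on the log2 scale in AE9a-Ddit4-/- libraries 1, 2 and 3. For the 40 nucleolar genes it was -1.30, -0.33 and -0.43, with -0.43 in AE9a-Ddit4+/+ library 2. AE9a-Ddit4-/- library 1 thus stood further apart in the nucleolar genes than in the ribosomal proteins. Of 78 mitochondrial ribosomal proteins, 21 were called lower and 1 (Mrpl44, 0.89) higher, with a median of -0.61, led by Mrps15 (-1.67) and Mrpl52 (-1.53). Without AE9a-Ddit4+/+ library 2 the calls of lower genes were 35 and 27 for the cytosolic and mitochondrial lists, and without any other single library 11 to 18 and 4 to 9.

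Part of the cell cycle genes were called lower. Of 23 genes of S phase 7 were called lower (median -1.001), among them Rrm2 (-2.69) and Cdc6 (-2.28), and of 22 genes of G2/M phase 13 were (median -1.05), among them Mki67 (-1.98) and Birc5 (-1.70). The median deviation of the S phase genes was 0.45, -0.58 and 0.17 in the AE9a-Ddit4+/+ libraries and -2.08, -0.62 and -0.61 in the AE9a-Ddit4-/- libraries, so that AE9a-Ddit4-/- library 1 was lowest and the other 2 lay near AE9a-Ddit4+/+ library 2. In these lists no gene was called higher by edgeR or by DESeq2, or had an unadjusted p below 0.05 in that direction. Their share in the level of the 40 genes was not tested. S phase genes had 10 calls without AE9a-Ddit4+/+ library 2 and 2 to 4 without any other single library. G2/M genes had 6 calls when AE9a-Ddit4+/+ library 1 was omitted, 7 when either AE9a-Ddit4+/+ library 3 or AE9a-Ddit4-/- library 2 was, and 9 to 14 otherwise.

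Myc, the transcription factor known to drive many of these genes, went the other way. Its RNA rose from 41.6, 30.6 and 51.5 CPM across AE9a-Ddit4+/+ to 111, 171 and 184 CPM across AE9a-Ddit4-/- libraries, without overlap (edgeR log2 fold change 1.91, SE 0.28, adjusted p = 0.00302). The median over 10 genes of the Myc network was 0.98. By edgeR 0 of them were called lower, 1 was lower at an unadjusted p below 0.05, and DESeq2 called 1 lower. Called higher by edgeR were 3 of the 10, against 19.4% of all genes tested. Of these 3, the second with at least 10 counts in every library was Mxd4, at 1.61 (edgeR adjusted p = 0.00880). Mxd4 is a repressor that competes with Myc for its partner Max.

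**Figure D5:**
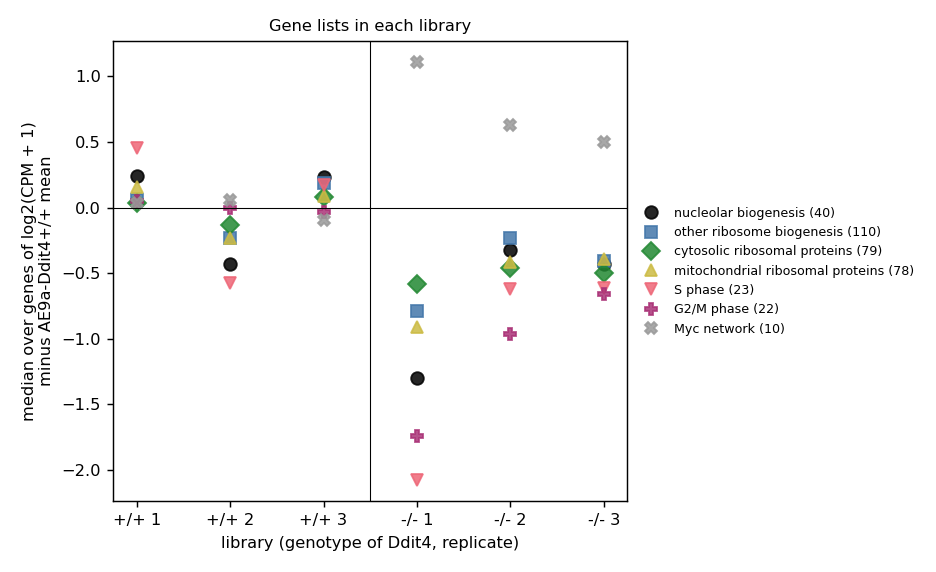
Median over the genes of each list of log2(CPM + 1) minus the mean of the 3 AE9a-Ddit4+/+ libraries (vertical axis, log2 units), for each of the 6 libraries (horizontal axis), with 1 symbol per list. The 40 nucleolar genes and the S phase genes are lowest in AE9a-Ddit4-/- library 1, at -1.30 and -2.08, whereas cytosolic ribosomal proteins lie between -0.58 and -0.46 in all 3 AE9a-Ddit4-/- libraries.

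Markers of blood lineages differed between the groups, and their role in the values above was not tested. Sums are given for AE9a-Ddit4+/+ libraries first. Of 11 erythroid genes 9 were called lower, with a summed level of 6908 to 14993 CPM across AE9a-Ddit4+/+ and 269 to 778 CPM across AE9a-Ddit4-/- libraries, led by Hbb-bs and Hba-a1. Of 12 neutrophil genes 5 were called lower, with sums of 7511 to 12385 against 1937 to 5405 CPM, S100a9 among them. In the other direction 0 were called by edgeR and 1 by DESeq2, and 1 had an unadjusted edgeR p below 0.05. Higher were 4 of 5 progenitor genes (Kit, Cd34, Ptprc and Myb, with sums of the list of 395 to 533 against 1617 to 2031 CPM), 7 of 8 megakaryocyte genes (99.9 to 161 against 2276 to 3029 CPM, with 1 lower) and 4 of 6 mast cell and basophil genes (254 to 282 against 1173 to 1846 CPM). The remaining progenitor gene, Spi1, had a log2 fold change of -0.56 and was lower at an unadjusted edgeR p below 0.05. Higher too were 6 of 7 B cell genes (1.05 to 4.86 against 64.5 to 127 CPM), 7 of 8 T and NK cell genes (10.8 to 48.4 against 81.2 to 111 CPM), 5 of 9 stromal and endothelial genes (9.50 to 18.3 against 322 to 334 CPM) and 2 of 7 monocyte and macrophage genes (89.1 to 152 against 84.9 to 243 CPM). The B cell gene Ms4a1 and the NK cell genes Ncr1 and Klrb1c had 0 counts in every AE9a-Ddit4+/+ library. The labels call the cells leukemia cells and give no lineage, and in AE9a-Ddit4+/+ libraries Cd34 was at 2.26 to 9.83 CPM.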

How the data were processed

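RNA of 6 libraries had been sequenced by the authors on an Illumina NovaSeq with paired reads of 150 bp. The kit was directional and followed rRNA depletion according to the methods, but an mRNA kit according to the labels. The authors deposited 1 table of whole-number counts per Ensembl gene. GRCm38 (mm10) is the build in the submitters' processing notes; the aligner, counter, annotation and use of strand are not given in the sources used here. Among low even values, multiples of 4 were more frequent than the others in every library, by ratios of 1.40 to 1.62. In addition, 210 genes had a count of 1 in every library. A count therefore need not be a single fragment, and how reads of near-identical copies were assigned is unknown. Pseudogene copies are annotated for Rrs1, Mrto4 and Npm3, and this list need not be complete.

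Groups and replicate numbers came from the titles. Members and lists were chosen with earlier results of these data known. Counts were tested in R 4.3.3 with edgeR 4.0.16 (filterByExpr, TMM factors of 0.921 to 1.05, glmQLFit and glmQLFTest, robust), which left 18375 of 55421 genes, with Benjamini-Hochberg adjustment over all of them. The code was tested on simulated counts. SE is the absolute log2 fold change over the square root of F. The common biological coefficient of variation was 0.433. CPM used TMM-scaled totals, and levels per kilobase the longest principal transcript of GENCODE M21. Every gene of the list was named; values in every library were given for those past the threshold and for the highest per kilobase in each role, and from other lists for at most 2 genes per direction. DESeq2 1.42.0, other scalings and filters, counts divided by 4, a stricter threshold, a replicate block and the omission of each library were run as alternatives.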

Additional observations from a re-analysis of the deposited data

How the results depend on the processing

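The count of 5 genes called lower was not stable. It was 3 with DESeq2 size factors, without mitochondrial genes, without the filter on low counts or with at least 10 counts in every library, 6 with library totals alone, with DESeq2's Wald test and with counts divided by 4, 0 at an adjusted p below 0.01, and 0 to 9 when a library was left out. The share of all genes called lower was 3.87% to 15% over all alternatives, and none of the 40 was called higher in any. By role, leaving out a library gave 0 to 3 calls for the small subunit, 0 to 1 for box C/D, 0 to 1 for box H/ACA, 0 to 3 for the large subunit and 0 to 1 for general nucleolar proteins. Box C/D lost its call (0) with DESeq2 size factors, without mitochondrial genes and under both other filters, and the large subunit gained 1 (to 2) with library totals alone, DESeq2's test and counts divided by 4. At an adjusted p below 0.01 the counts were 0 for the roles, 3 for other ribosome biogenesis, 0 for the RNA exosome, 7 for cytosolic and 0 for mitochondrial ribosomal proteins, 1 for S phase and 4 for G2/M phase. With at least 10 counts in every library cytosolic ribosomal proteins had 23 calls and mitochondrial ones 12. The Myc network had 5 genes higher without mitochondrial genes, with DESeq2's test and with counts divided by 4. Leaving out a library gave 4 to 25 calls for other ribosome biogenesis, 0 to 4 for the exosome, 11 to 35 for cytosolic and 4 to 27 for mitochondrial ribosomal proteins, 2 to 10 for S phase and 6 to 14 for G2/M phase.

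The median log2 fold change stayed between -0.86 and -0.40, and 35 to 38 of the 40 estimates were below 0. Bop1, Rrs1 and Ncl changed sign, each only when a library was left out. Noc3l was called in 13 of 15 alternatives, Rrp12 in 9, Rrp9 in 8, and Fbl and Utp20 in 4 each. The causes were not tested.

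What the replicate number marks is not stated. The deviations of same-numbered libraries from their group means correlated at -0.356, -0.392 and 0.0179 over 7724 genes. Those of differently numbered libraries correlated at -0.178 to 0.421. With 3 libraries per group, these values cannot show whether same-numbered libraries were paired. With the number as a block, 1 of the 40 genes (Noc3l) was called lower, and 4.28% of all genes tested were. By role and list, 0 were called lower for the small subunit, 0 for box C/D and 0 for the exosome. The block left 3 calls for other ribosome biogenesis, 7 for cytosolic and 1 for mitochondrial ribosomal proteins, 2 for S phase and 7 for G2/M phase.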

Other observations

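The RNA exosome, which trims and degrades the fragments cut from the ribosomal precursor, was lower in part. Of its 13 genes 3 were called lower and 0 higher by edgeR (0 higher at an unadjusted p below 0.05 and 0 by DESeq2), with a median log2 fold change of -0.30. Exosc8 went from 113, 68.1 and 105 CPM across AE9a-Ddit4+/+ to 36.0, 43.4 and 51.5 CPM across AE9a-Ddit4-/- libraries (edgeR log2 fold change -1.13, adjusted p = 0.0143), and Exosc9 was at -0.92 (adjusted p = 0.0213). Without AE9a-Ddit4+/+ library 3 there were 0 calls and without AE9a-Ddit4-/- library 1 there was 1.

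Of the 40 nucleolar genes 7 (Dkc1, Gnl3, Ncl, Nop56, Nop58, Tsr1 and Wdr43) carry 21 annotated snoRNA genes within them, all of which were in the table. Their values were low, with at most 174 counts in a library, and 7 of the 21 had a count of 1 in every library. Gm24451, inside Nop56, had 174, 125 and 157 counts in AE9a-Ddit4+/+ and 73, 81 and 95 counts in AE9a-Ddit4-/- libraries. Snord57, also inside Nop56, had 80, 80 and 66 against 38, 7 and 38 counts. Others did not go that way, with Gm26287, inside Nop58, at 11, 8 and 29 against 21, 31 and 35 counts and Snord53, inside Wdr43, at 27, 21 and 37 against 12, 47 and 31 counts. These examples were picked after their values were seen. Gm24451 shares 100 bases and Snord57 72 bases with exons of Nop56, so that their reads and those of Nop56 cannot be told apart.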
